A study of Homo sapiens with 9 samples.

Results

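The U251 cultures of this series carry the numbers 1, 2 and 3 within each treatment, and transcript levels in cultures numbered 2 were compared here with those in cultures numbered 3. Members were the 3 arrays whose titles end in 2 and the 3 whose titles end in 3, which makes 6 of the 9 arrays, and the 3 arrays ending in 1 were not used. U251 (U251MG) is an established line derived from a human glioma. In each number, 1 culture received an siRNA against WT1 at 100 nM with the transfection reagent Oligofectamine, 1 received a non-targeting (scrambled) siRNA at 100 nM with the same reagent, and 1 received the reagent alone. All of them were grown in wells of a multiwell plate in DMEM with antibiotics, and total RNA was labelled for Affymetrix arrays. The series calls the arrays biological triplicates, and the sources used here give no time from transfection to harvest. Whether a number stands for a day, a plating, a passage or a batch of arrays is likewise not stated, so culture and array handling cannot be told apart.

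Arrays were paired by treatment, so that each probe set had 3 differences of number 2 minus number 3, and limma tested whether their mean departed from 0 in a fit with treatment as a term. A probe set was called at a Benjamini-Hochberg adjusted p under 0.05 over all 19064 probe sets tested. Each number is 1 unit, and the p-values measure how well a difference recurred over the 3 treatments, not how other pairs of platings would differ. Levels are log2 values, so that a difference of 1 is a doubling. Cells in culture make cholesterol and fatty acids through enzymes whose genes are switched by the SREBP transcription factors, which are held inactive in the endoplasmic reticulum by INSIG proteins when sterols are plentiful. Glioma lines also keep part of the gene expression of astrocytes and of neural progenitors, such as the intermediate filament GFAP and the transcription factor SOX2, and secrete chemokines, matrix proteins and matrix-degrading enzymes.

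Differences between the numbers were widespread and correlated between the treatment pairs. Of 19064 probe sets, 4680 (24.5%) were called, 2386 of them higher in number 2 (12.5%) and 2294 lower (12%). Of 11963 genes, each taken by its brightest probe set, 2966 (24.8%) were called, 1557 higher (13%) and 1409 lower (11.8%), and these shares are the background for the gene lists below. Most differences were small, with a median absolute log2 difference of 0.34 among called probe sets. Those of at least 1 were mostly lower in number 2, with 85 lower and 16 higher. All 4680 called probe sets had the same sign in 3 of 3 pairs, which the calling rule nearly requires, so it is no separate evidence of recurrence. In 4001 of them (85.5%) the 3 arrays of number 2 did not overlap those of number 3, against 34.4% of all probe sets tested. The calling rule favours this separation too. Culture number accounted for 57.1% of the sum of squares over the 6 arrays, and treatment for 30.4%. The paired differences correlated across probe sets with Pearson's r of 0.758 between the WT1 siRNA and scrambled siRNA pairs, 0.697 between the WT1 siRNA and reagent pairs and 0.776 between the scrambled siRNA and reagent pairs. These describe 19064 probe sets that are not independent of each other. The 3 pairs did not weigh alike in the calls: 4214 probe sets were called without the WT1 siRNA pair, 3542 without the reagent pair and 2516 without the scrambled siRNA pair.

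**Figure D1:**
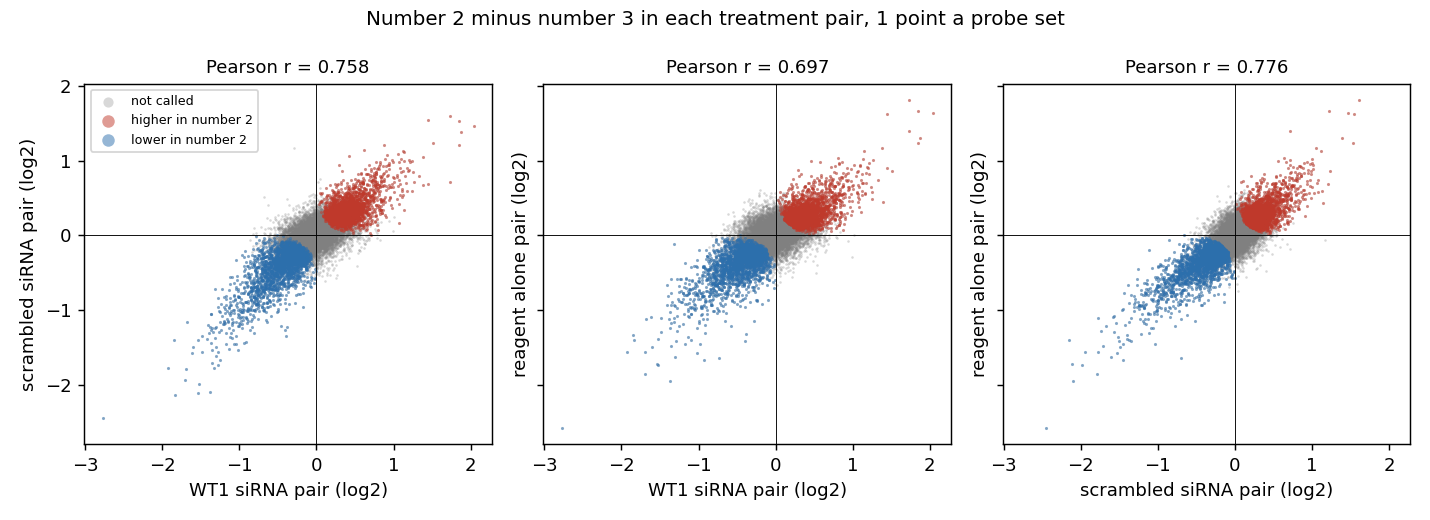
Log2 difference of number 2 minus number 3 in one treatment pair against another, with 1 point a probe set. Red points were called higher in number 2, blue points lower, and grey points were not called. Pearson's r is over all 19064 probe sets tested, not all of which are drawn. The points lie along the rising diagonal in all 3 panels, with Pearson's r of 0.758, 0.697 and 0.776, and the lower tail reaches further than the upper one.

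Array medians lay between 6.45 and 6.54, and the control probe sets of the chip also separated the numbers. The signal at the 3' end of ACTB exceeded that at its 5' end by 0.55 to 0.68 in number 2 and by 0.26 to 0.51 in number 3, and for GAPDH this excess was 0.16 to 0.18 in number 2 and 0.095 to 0.11 in number 3. The 18S rRNA control probe sets averaged 5.74 to 5.80 in number 2 and 5.14 to 5.32 in number 3. The mean of the 7 hybridisation controls was 9.06 to 9.13 in number 2 and 9.37 to 9.44 in number 3. None of these ranges overlapped, so these measures moved with every difference described below, and their part in it was not tested.

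WT1, a zinc finger transcription factor and the target of the siRNA, checked the treatment labels within each number. Its brighter probe set stood at 5.09 with the WT1 siRNA, 5.89 with the scrambled siRNA and 6.58 with reagent alone in number 2. In number 3 the values were 4.82 with the WT1 siRNA, 5.41 with the scrambled siRNA and 5.89 with reagent alone. By this probe set WT1 was lowest with its own siRNA in both numbers, by 0.80 against the scrambled siRNA in number 2 and by 0.59 in number 3. Taken over treatments, WT1 was 0.48 higher in number 2 (SE 0.085, limma adjusted p = 0.00572), with pair differences of 0.26, 0.48 and 0.69 in the WT1 siRNA, scrambled siRNA and reagent pairs. The arrays of the numbers overlapped, and without a term for treatment the adjusted p was 0.454. The dimmer WT1 probe set, at 4.94 in number 2 and 5.02 in number 3, did not pass (difference −0.08, adjusted p = 0.453). In number 2 it stood at 4.83 with the WT1 siRNA, 4.94 with the scrambled siRNA and 5.05 with reagent, but in number 3 it was highest with the WT1 siRNA, at 5.06, against 5.00 with the scrambled siRNA and with reagent.

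The gene with the greatest difference was GFAP, the intermediate filament of astrocytes. GFAP stood at 5.36 with the WT1 siRNA, 5.54 with the scrambled siRNA and 6.68 with reagent in number 2, against 8.13, 7.99 and 9.26 in number 3. Every array of number 2 was below every array of number 3, and reagent alone was highest in both numbers. The log2 difference was −2.60 (SE 0.075, limma adjusted p = 1.04e-05), a 6.06-fold lower level in number 2. A second GFAP probe set, between 6.10 and 6.22 in number 2 and between 6.08 and 6.51 in number 3, was not called (−0.10). In bulk RNA, fewer cells of a type and less RNA per cell cannot be told apart, here and below.

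FABP7, the brain fatty acid-binding protein of radial glia, fell by 1.79 (SE 0.12, adjusted p = 0.000144), and 2 of its 3 probe sets were called lower. PRSS12, which encodes the protease neurotrypsin, fell by 1.79 (SE 0.10), and both of its probe sets were called. Each of the 3 arrays of number 2 was below each array of number 3 for both genes. Among the other large decreases, EEF1A2, a tissue-restricted translation elongation factor, fell by 1.53, and the chemokine CXCL14 fell by 1.53. IGFBP2, a binding protein for insulin-like growth factors, stood at 8.29, 8.34 and 8.27 in number 2 (WT1 siRNA, scrambled siRNA, reagent) and at 9.83, 9.74 and 9.65 in number 3, a difference of −1.44 (SE 0.064). Its SD over the treatments was 0.039 in number 2 and 0.087 in number 3, small beside the difference. BCL2L1, which encodes the survival protein Bcl-xL, fell by 1.51 at its most affected probe set and by 0.52 at its brightest, and CALR, an endoplasmic reticulum chaperone, by 1.43 and 0.62, with 3 of 3 probe sets called for each gene.

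CXCL8, the neutrophil chemokine interleukin-8, stood at 9.07, 8.18 and 8.84 in number 2 (WT1 siRNA, scrambled siRNA, reagent), against 7.03, 6.71 and 7.21 in number 3. It was 1.71 higher in number 2 (SE 0.10, adjusted p = 0.000104), or 3.28-fold. The increase was present in all pairs, and a second CXCL8 probe set rose by 1.28. MMP3 (stromelysin-1), an enzyme that degrades matrix, stood at 11.05, 10.29 and 10.84 in number 2 and at 9.20, 9.08 and 9.17 in number 3, a difference of 1.58 (SE 0.11, adjusted p = 0.000144). MMP1, the interstitial collagenase, rose by 1.53 (SE 0.11), and was highest with the WT1 siRNA in both numbers. The numbers did not overlap for either enzyme.

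EVI2A, which encodes a membrane protein and lies within an intron of NF1, had the greatest increase at 1.72 (SE 0.066, adjusted p = 3.4e-05). LRRC17, a secreted leucine-rich repeat protein, rose by 1.54, but its lowest array in number 2 (8.49, reagent) was next to its highest in number 3 (8.48, scrambled siRNA), and without a term for treatment its adjusted p was 0.0588. DIO2, the deiodinase that activates thyroid hormone, rose by 1.54, and 4 of its 4 probe sets were called. FABP4, a fatty acid-binding protein of adipocytes and macrophages, rose by 1.20, and EPAS1, the hypoxia-inducible factor 2 alpha, by 1.13. TEAD1, the DNA-binding partner of the coactivator YAP, rose by 1.06, the ciliary gene CEP290 by 1.05 and the splicing factor SRSF11 by 1.02. The increases of EPAS1 and SRSF11 rest on part of their probe sets: 1 of 2 was called for EPAS1, and 2 of 3 for SRSF11, whose brightest rose by 0.24.

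**Figure D2:**
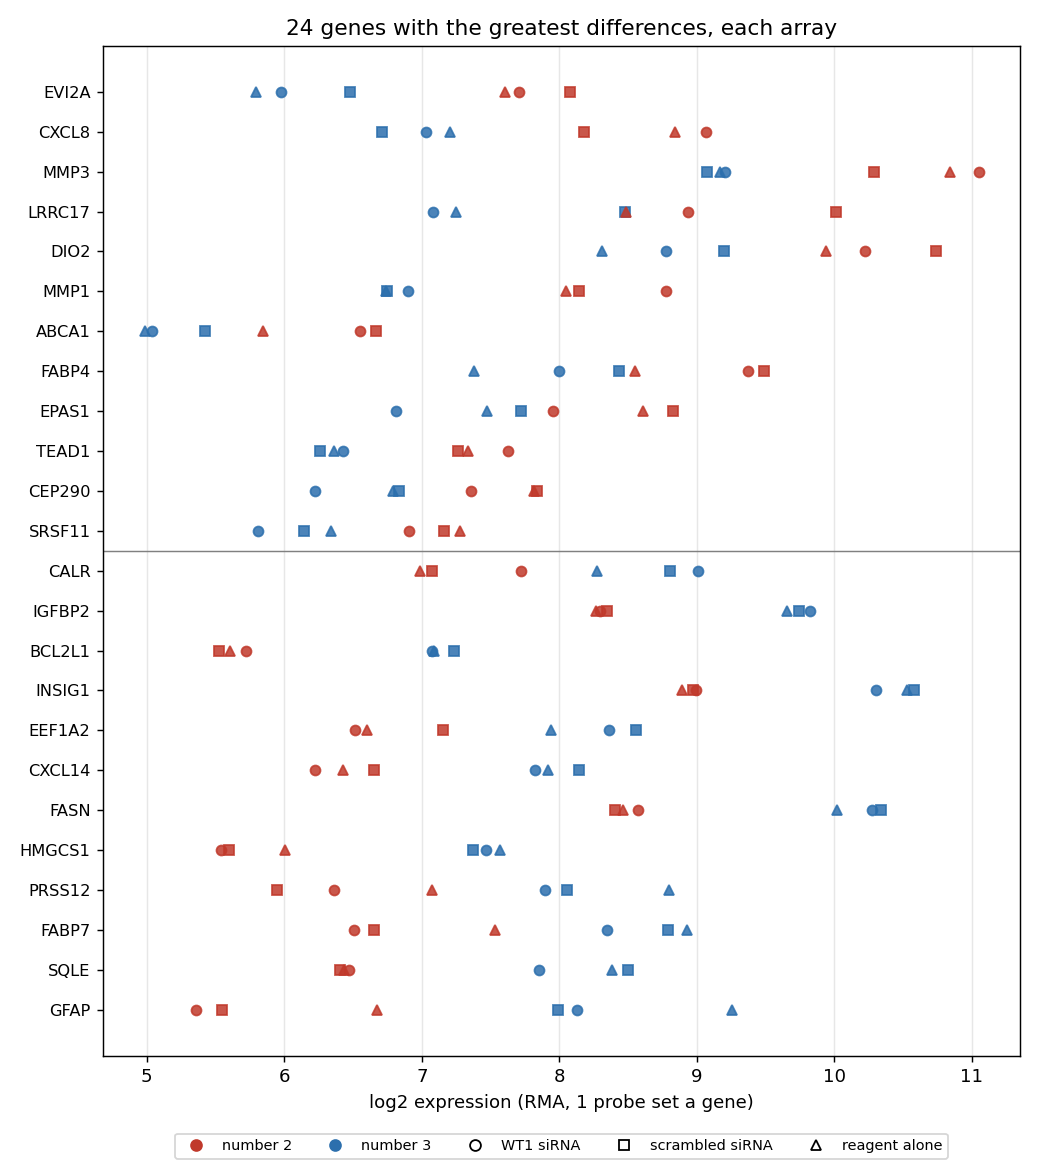
Log2 expression on each of the 6 arrays for the 12 genes with the greatest called increase and the 12 with the greatest called decrease in number 2, ordered from increase (top) to decrease (bottom); red symbols are number 2, blue symbols number 3, and the shape gives the treatment. For each of the 24 genes the values of the numbers do not overlap, although the symbols of LRRC17 touch (8.49 in number 2, 8.48 in number 3), and the gap is widest for GFAP at the bottom (5.86 against 8.46 on average). The choice of large called differences favours this separation, which 34.4% of all probe sets tested also show.

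Genes of cholesterol synthesis fell together in number 2. Of 17 measured members of the list of cholesterol synthesis genes and SREBP2 targets, 15 were called lower and 0 higher, against 11.8% of all genes called lower. The other 2, MVK and PMVK, had differences of −0.18 and −0.17 and did not pass. The median of the list was −0.77, against 0.03 over all genes, and was −0.76 in the WT1 siRNA pair, −0.82 in the scrambled siRNA pair and −0.77 in the reagent pair. Across 8 other ways of processing, among them leaving out each pair and centring within bins of gene length, 14 to 15 members were called lower and the median lay between −0.80 and −0.70.

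The promoters of 4 of these genes are shown because the list shared a sequence feature that was not used to choose it. RefSeq windows of 300 bases on GRCh38.p14, of which 250 lie before the transcription start, were searched for CCAAT, the element bound by NF-Y, on both strands, so that a match on the other strand reads ATTGG. A window was given for 15 of the 17 genes, and 14 of the 15 (93.3%) had a match in at least 1 window, against 44.2% of 9562 genes on the array with a window. Counted by window, 16 of 20 (80%) had a match, against 34.6% of 35116 windows in the table. Those windows include genes not on the array, and of all genes with a window 39.7% had a match, so this baseline is lower. The sterol element core CACNCCAC was found in 3 of the 15 genes (20%), against 8.35% of genes on the array. By window it was found in 4 of 20 (20%), against 5.87% of all windows, again with genes not on the array. Also searched were the E-box CACGTG (3 of the 15 genes, 20%, against 12%) and the AP-1 element TGANTCA (0 of the 15, against 8.13%). In other lists searched, CCAAT was found in 5 of 9 fatty acid synthesis genes (55.6%) and in 13 of 24 chemokines, interleukins and NF-kB targets (54.2%). The windows are HMGCS1 at chr5:43313363-43313662 (minus strand), INSIG1 at chr7:155297628-155297927 (plus strand), MVD at chr16:88663042-88663341 (minus strand) and MSMO1 at chr4:165327419-165327718 (plus strand). Where a gene had several windows, the one with the most matches is printed. Capitals mark CCAAT or ATTGG, which occurs 2 times for HMGCS1, 1 time for INSIG1, 3 times for MVD and 4 times for MSMO1. A match is a description of the letters and does not show binding.
HMGCS1: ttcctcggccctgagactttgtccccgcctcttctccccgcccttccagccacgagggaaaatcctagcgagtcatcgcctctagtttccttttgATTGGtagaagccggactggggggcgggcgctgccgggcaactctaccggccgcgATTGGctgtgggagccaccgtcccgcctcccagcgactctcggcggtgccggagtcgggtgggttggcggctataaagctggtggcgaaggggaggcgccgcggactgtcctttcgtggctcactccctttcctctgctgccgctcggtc
INSIG1: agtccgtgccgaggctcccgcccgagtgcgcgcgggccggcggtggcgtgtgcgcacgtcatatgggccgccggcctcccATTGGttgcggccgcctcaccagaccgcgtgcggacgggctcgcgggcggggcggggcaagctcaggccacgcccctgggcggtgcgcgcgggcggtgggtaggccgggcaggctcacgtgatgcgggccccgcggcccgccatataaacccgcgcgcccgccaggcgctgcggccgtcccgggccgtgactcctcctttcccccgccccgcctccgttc
MVD: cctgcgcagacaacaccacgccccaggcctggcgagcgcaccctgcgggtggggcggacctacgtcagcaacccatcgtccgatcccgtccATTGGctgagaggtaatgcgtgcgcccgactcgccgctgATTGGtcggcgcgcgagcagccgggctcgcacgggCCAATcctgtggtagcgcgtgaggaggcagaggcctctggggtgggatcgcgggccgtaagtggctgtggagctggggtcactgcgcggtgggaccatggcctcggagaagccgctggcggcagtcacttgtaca
MSMO1: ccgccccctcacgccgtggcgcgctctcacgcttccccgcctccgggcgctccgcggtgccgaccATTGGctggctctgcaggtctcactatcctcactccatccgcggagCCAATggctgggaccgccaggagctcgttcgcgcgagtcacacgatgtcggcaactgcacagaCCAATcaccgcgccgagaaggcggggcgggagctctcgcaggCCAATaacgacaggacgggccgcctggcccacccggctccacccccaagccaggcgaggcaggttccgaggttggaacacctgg

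HMGCS1, which makes the HMG-CoA from which the pathway starts, stood at 8.54, 8.41 and 8.76 in number 2 (WT1 siRNA, scrambled siRNA, reagent), against 10.07, 10.39 and 10.50 in number 3. Its difference was −1.75 (SE 0.089, adjusted p = 7.02e-05), and both of its probe sets were called. Among the enzymes between HMG-CoA and squalene, IDI1 (isopentenyl diphosphate isomerase) fell by 1.11, MVD (mevalonate diphosphate decarboxylase) by 0.83 and FDPS (farnesyl diphosphate synthase) by 0.41. MVK and PMVK, the mevalonate kinases named above, belong to the same stretch, so the decrease was uneven along it.

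Downstream of squalene, SQLE, the squalene monooxygenase, stood at 9.28, 9.24 and 9.31 in number 2 and at 10.08, 10.25 and 10.32 in number 3 by its brightest probe set, a difference of −0.94 (SE 0.069). All 3 SQLE probe sets were called, with differences from −1.81 to −0.74. LSS, which closes the sterol ring to lanosterol, fell by 0.77. MSMO1, the C4 methylsterol oxidase, fell by 1.04. TM7SF2, a sterol reductase, fell by 0.93, and NSDHL, which acts with MSMO1, by 0.49. DHCR7, which catalyses the last step to cholesterol, fell by 1.18 (SE 0.095), SC5D by 0.54 and EBP by 0.30. INSIG1, itself a target of SREBP and the retention partner of its escort protein, stood at 9.32, 9.55 and 9.40 in number 2 and at 10.42, 10.93 and 10.80 in number 3, a difference of −1.29 (SE 0.076), and 3 of its 3 probe sets were called.

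Fatty acid synthesis genes and SREBP1 targets also fell, in 7 of 10 measured members (70%), with 0 higher and a median of −0.36. FASN, the fatty acid synthase, stood at 8.57, 8.40 and 8.46 in number 2, against 10.27, 10.34 and 10.02 in number 3. The difference was −1.73 (SE 0.081, adjusted p = 5.22e-05), and a second, dim FASN probe set, at 4.86 in number 2 and 4.93 in number 3, was not called. SCD, which places the double bond in stearate, fell by 0.84, the desaturase FADS2 by 0.83 and the elongase ELOVL6 by 0.54. ACACA, the acetyl-CoA carboxylase, fell by 0.27 (adjusted p = 0.0249). ACLY, ME1 and ELOVL5 had differences of −0.05, 0.06 and 0.07 and did not pass, although dimmer ELOVL5 probe sets were called in both directions (0.25 and −0.24). Without the scrambled siRNA pair or without the reagent pair, 5 members were called lower.

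Further genes of sterol sensing and export were looked up after their values had been seen. They are given with ABCA1, which the size rule had named, and SREBF1, which the fatty acid list above already counted. SREBF2, which encodes SREBP2, fell by 0.67 (SE 0.070, adjusted p = 0.000561) at its brightest probe set, and SREBF1 by 0.42. ABCA1, the exporter of cellular cholesterol and a target of the LXR receptors, stood at 7.32, 7.30 and 6.80 in number 2 (WT1 siRNA, scrambled siRNA, reagent), against 6.13, 6.44 and 5.88 in number 3, by its brightest probe set. It rose by 0.99 (SE 0.078, adjusted p = 0.000194). SOAT1, which esterifies cholesterol for storage, rose by 0.36, NPC1, which releases it from lysosomes, by 0.30 and MYLIP, which targets the LDL receptor for degradation, by 0.28. NR1H3, which encodes LXR alpha, fell by 0.38 (adjusted p = 0.0296), and ABCG1, another LXR target, stood at 4.60 to 4.71 in number 2 and 4.40 to 4.71 in number 3 and did not pass.

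**Figure D3:**
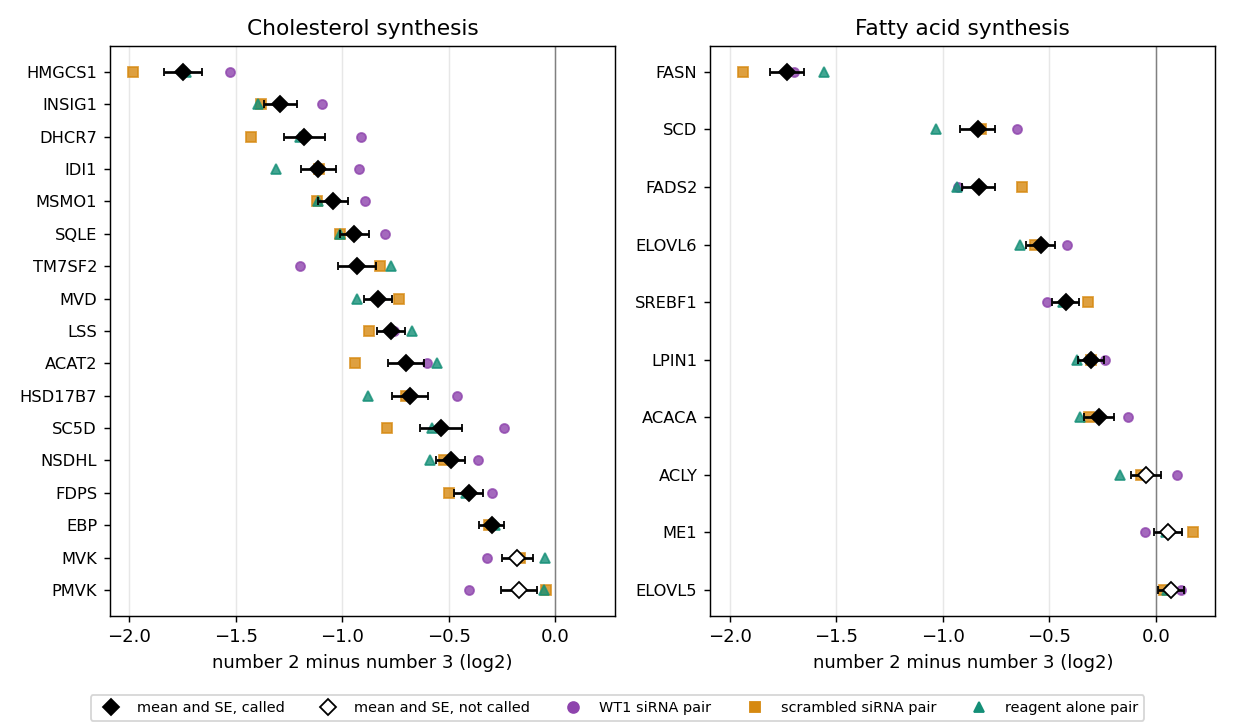
Log2 difference of number 2 minus number 3 for measured genes of cholesterol synthesis (left) and fatty acid synthesis (right), by each gene's brightest probe set; diamonds with bars are the mean and its SE from limma, filled where called, and coloured symbols are the 3 treatment pairs. All 17 cholesterol genes lie below 0 in every pair, while ACLY, ME1 and ELOVL5 lie around 0.

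Glial and progenitor genes moved in both directions. Of 20 astrocyte and glioma markers, 6 were called lower (30%, against 11.8% of all genes) and 4 higher (20%, against 13%), and the median was 0.01. Those lower were GFAP, FABP7, NES (nestin, a progenitor intermediate filament, −0.98), CLU (clusterin, −0.59), the growth factor receptor PDGFRA (−0.54) and GLUL (glutamine synthetase, −0.30). Those higher were the gap junction gene GJA1 (0.55), the glutamate transporter SLC1A3 (0.43), the water channel AQP4 (0.30, at a low level of 4.54 in number 2 and 4.24 in number 3) and EGFR (0.29). VIM and CD44, the most abundant of the markers, did not pass: VIM averaged 13.7 in both numbers, and CD44 differed by 0.12. Dimmer CD44 probe sets were called in both directions (0.28 and −0.44).

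SOX2, a transcription factor of neural stem cells, stood at 7.79, 7.15 and 7.61 in number 2 (WT1 siRNA, scrambled siRNA, reagent), against 8.98, 8.20 and 8.67 in number 3, and fell by 1.10 (SE 0.063, adjusted p = 0.000104). The numbers did not overlap. Of the 24 Notch, glial and neural progenitor genes, 6 were lower (25%) and 5 higher (20.8%). HES1, a Notch target repressor, fell by 0.58, with 1 of its 3 probe sets called. In contrast HEY1, another Notch target, rose by 0.48, the receptor NOTCH2 by 0.37 and its ligand JAG1 by 0.33. ZEB1, a repressor of epithelial genes, rose by 0.51. Without the scrambled siRNA pair, 3 were lower and 3 higher, and without the same pair 5 astrocyte markers were lower and 2 higher.

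Of 36 extracellular matrix genes, 11 rose (30.6%, against 13% of all genes) and 4 fell (11.1%, near the 11.8% of all genes). COL1A2, a chain of type I collagen, stood at 10.17, 9.67 and 10.32 in number 2, against 9.36, 8.78 and 9.36 in number 3, a rise of 0.89 (SE 0.063). The basement membrane collagen COL4A1 rose by 0.81, COL6A3 by 0.67 and the fibrillin FBN1 by 0.65, while COL6A2 fell by 1.05 and the fibulin FBLN1 by 0.55. Chains of type VI collagen thus differed in sign. Of 20 matrix-degrading enzymes and inhibitors, 6 rose (30%) and 2 fell (10%). Besides MMP1 and MMP3, the urokinase PLAU rose by 0.52, its receptor PLAUR by 0.38, ADAM12 by 0.48 and TIMP4 by 0.54. The tissue plasminogen activator PLAT fell by 0.42 and the inhibitor TIMP1 by 0.26. The rises in the matrix list numbered 4 without a term for treatment, and the falls among enzymes and inhibitors numbered 1 without either siRNA pair.

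Of 31 chemokines, interleukins and NF-kB targets, 7 rose (22.6%) and 2 fell (6.45%, under the 11.8% of all genes). Besides CXCL8, TNFAIP3, a feedback inhibitor of NF-kB, rose by 0.53, the chemokine CXCL2 by 0.47, the interleukins IL1A by 0.33 and IL6 by 0.22, and the receptor IL1R1 by 0.55. CCL2, which attracts monocytes, fell by 0.37 and LIF by 0.24. CXCL2, IL6, IL1A and IL1R1 lay under the array median in both numbers, and the falls numbered 0 without the scrambled siRNA pair. Among 20 TGF-beta responsive genes, 4 rose (20%) and 5 fell (25%). The ligand TGFB1 fell by 1.31 (SE 0.092) at its brightest probe set, but its other probe set was not called (−0.13). TGFB2 rose by 0.69 and the receptor TGFBR2 by 0.53. The inhibitors of differentiation ID1, ID2 and ID3 fell by 0.23, 0.75 and 0.34. The TGF-beta falls numbered 3 without the scrambled siRNA pair and 3 without the reagent pair, and the rises 6 without the WT1 siRNA pair.

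Genes responsive to YAP and mechanical load had 7 of 17 members higher (41.2%) and 0 lower, with a median of 0.14. Besides TEAD1, these were CCN1 (0.59) and CCN2 (0.37), matricellular proteins and classical YAP targets, NT5E (0.78), the tissue factor F3 (0.40), the tropomyosin TPM1 (0.38) and vinculin VCL (0.27). CCN1 stood at 11.17, 11.27 and 10.82 in number 2, against 10.48, 10.68 and 10.33 in number 3. Leaving out any of the pairs left 6 called higher. Of 23 immediate early genes, 5 rose (21.7%) and 2 fell (8.7%, under the 11.8% of all genes). KLF4 rose by 0.72, DUSP1 by 0.58 and MYC by 0.52, and the AP-1 subunits JUND and FOSL1 fell by 1.36 and 0.84.

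Of 29 genes of the ATF4 and amino acid response, 9 fell (31%) and 0 rose, led by the glutamine transporter SLC1A5 (−0.79), the leucine transporter SLC7A5 (−0.57) and the translation repressor EIF4EBP1 (−0.56). Without the scrambled siRNA pair 5 were lower, and without the WT1 siRNA pair 16. Of 17 glycolysis enzymes, 8 fell (47.1%) and 2 rose (11.8%, under the 13% of all genes), with a median of −0.06. ENO2, the neuronal enolase, fell by 1.23 (SE 0.074), the pyruvate kinase PKM by 0.79 and TPI1 by 0.47, and HK2, a hexokinase, rose by 0.35. The rises numbered 0 without the scrambled siRNA pair and 1 without either of the other pairs. Centring within bins of gene length left 5 lower and 3 higher, and moved the median to 0.02.

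Of 21 hypoxia response genes, 9 fell (42.9%) and 1 rose (4.76%), the collagen prolyl hydroxylase P4HA2 (0.35). DDIT4, an inhibitor of mTOR signalling, fell by 0.81, and the mitophagy receptors BNIP3L and BNIP3 by 0.64 and 0.43. EPAS1, which encodes a factor of the same response, was higher as given above. Without the scrambled siRNA pair 5 were lower, and without the reagent pair 6. Of 24 unfolded protein response genes, 6 fell (25%), led by the chaperone HYOU1 (−0.65), and 1 rose (4.17%), DNAJC3 (0.44). Here the count depended on the pairs, with 2 lower without the scrambled siRNA pair, 3 without the reagent pair and 10 without the WT1 siRNA pair. Of 14 genes of the insulin-like growth factor axis, 5 fell (35.7%) and 2 rose (14.3%, near the 13% of all genes). Besides IGFBP2, IGFBP4 fell by 0.82 while IGFBP3 rose by 0.46. Without the scrambled siRNA pair 2 of them were lower and 1 higher.

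Of 31 genes of G1/S and DNA replication, 8 fell (25.8%) and 0 rose. CDT1, which loads the replicative helicase, fell by 0.82, the helicase subunits MCM5 and MCM7 by 0.72 and 0.64, and the transcription factor E2F1 by 0.54. Of 35 mitotic genes, 4 were higher (11.4%) and 3 lower (8.57%), shares under those of all genes (13% and 11.8%). Among them, the kinases PLK1 and AURKB fell by 0.92 and 0.48, while the kinesin CENPE rose by 0.79 and KIF4A by 0.29. The mitotic rises numbered 1 without the scrambled siRNA pair, 10 with centring by gene length and 8 with arrays scaled to the same interquartile range. Of 37 oxidative phosphorylation genes, 7 fell (18.9%) and 0 rose, led by UQCRC1 (−0.89). That count was 4 without the scrambled siRNA pair and 4 without the WT1 siRNA pair, and with centring by gene length 4 were lower and 4 higher.

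Interferon-stimulated genes were called in both directions, with 13 of 43 lower (30.2%) and 5 higher (11.6%, under the 13% of all genes). IFI6 fell by 0.88, IFITM2 by 0.67, the ubiquitin-like modifier ISG15 by 0.63 and IFITM3 by 0.61. GBP1, a guanylate-binding GTPase, rose by 0.89 and IFI16, a DNA sensor, by 0.62. Without the scrambled siRNA pair 5 were lower and 2 higher, and without a term for treatment 6 were lower. Among 36 reported WT1 targets, 6 rose (16.7%) and 5 fell (13.9%), shares near those of all genes (13% and 11.8%), but with centring by gene length 10 were higher and 3 lower. PODXL (podocalyxin) rose by 0.97. The rises numbered 3 without the scrambled siRNA pair, and the falls 3 without the reagent pair.

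**Figure D4:**
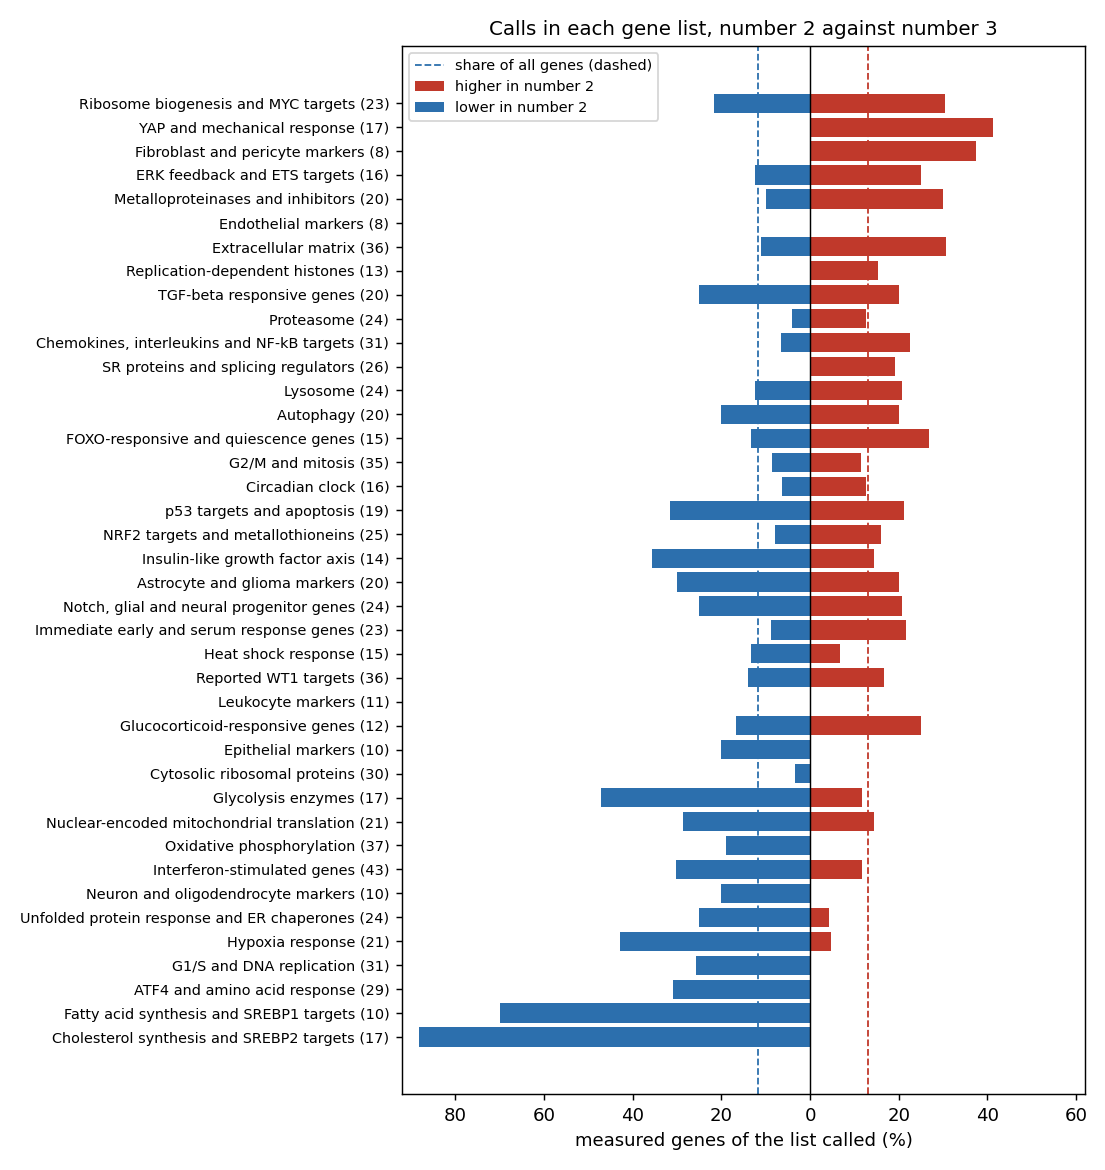
Percent of the measured genes of each list called higher (red, right) or lower (blue, left) in number 2, ordered by the list's median difference, with the number of measured genes in parentheses; dashed lines give the shares over all 11963 genes (13% and 11.8%). The bars for cholesterol synthesis (88.2% lower) and fatty acid synthesis (70% lower) reach furthest from the dashed lines.

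Ribosomal proteins moved little, with 1 of 30 called, RPL35 (−0.20). Markers of other cell types were mixed in level, and most of the leukocyte, endothelial and epithelial ones (9 of 11, 6 of 8 and 7 of 10) lay under the array median on all 6 arrays. The 11 leukocyte markers averaged 5.40 to 5.42 in number 2 and 5.33 to 5.49 in number 3, and 0 were called. The leukocyte antigen PTPRC was at 4.54 in number 2 and 4.52 in number 3. The 8 endothelial markers averaged 5.28 to 5.40 in number 2 and 5.29 to 5.33 in number 3, and 0 were called. The 8 fibroblast and pericyte markers averaged 6.12 to 6.25 in number 2 and 5.97 to 6.09 in number 3, and 3 rose by their brightest probe set: FAP by 0.50 at a level under the array median, RGS5 by 0.35 and THY1 by 0.30, with 1 called without the scrambled siRNA pair. THY1 averaged 9.86 in number 2 and 9.57 in number 3, and another of its 3 probe sets was called the other way, with a fall of 0.50, so that its direction is not settled. The 10 epithelial markers averaged 5.74 to 5.88 in number 2 and 5.86 to 5.97 in number 3, and KRT18 was abundant (10.27 in number 2 and 10.51 in number 3) and did not pass, while KRT8 fell by 0.55 and CLDN4 by 0.24, with 1 called whichever pair was left out. The 10 neuron and oligodendrocyte markers averaged 6.31 to 6.40 in number 2 and 6.47 to 6.55 in number 3, and NEFL, a neurofilament that was abundant in both numbers (11.33 and 12.17), fell by 0.84 and SOX10 by 0.23, with 1 called lower without the scrambled siRNA pair or the reagent pair. Whether these markers bear on the matrix or glial gene differences was not tested.

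The genes called higher had a greater median length than those called lower. The median length on the genome (GRCh38.p14 gene spans) was 53.1 kb for genes higher in number 2 and 16.2 kb for genes lower, against 28.1 kb for genes not called. In the shortest of 10 bins of genes, with a median of 2.49 kb, 4.43% were higher and 13.9% lower, and in the longest, with a median of 278 kb, 20.7% were higher and 5.35% lower. Spearman's rho between length and difference was 0.241 over 11954 genes, which share the 6 arrays. The median difference of the shortest bin was −0.08 in the WT1 siRNA pair, −0.01 in the scrambled siRNA pair and 0.01 in the reagent pair, whereas that of the longest was 0.07 in the WT1 siRNA and scrambled siRNA pairs and 0.08 in the reagent pair. Called probe sets were 51% higher in the fit as given and 63.9% higher once each array had been centred within 20 bins of gene length. With each array centred on its median alone, which does not use gene length, 58.4% were higher, so the move is not all due to the bins. Centring within the bins also moved list counts. With it, 11 matrix-degrading enzymes and inhibitors, 7 TGF-beta responsive genes and 7 Notch, glial and progenitor genes were higher. Lower were 8 interferon-stimulated genes and 3 unfolded protein response genes. With median centring alone these counts were 6, 4, 6, 12 and 5.

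**Figure D5:**
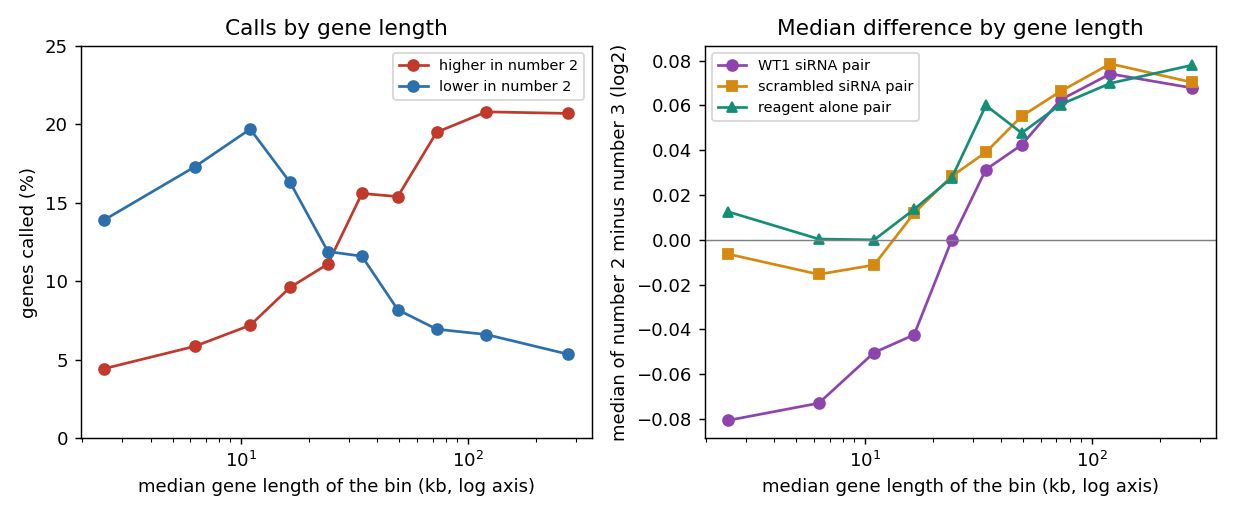
Percent of genes called higher (red) and lower (blue) in number 2 in each of 10 bins of gene length (left), and the median log2 difference of number 2 minus number 3 in each bin for the 3 treatment pairs (right), both against the median length of the bin in kb on a log axis. The share called higher is 4.43% in the shortest bin and 20.7% in the longest, and the pairs differ most in the shortest genes.

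The size of the difference was not the same in each treatment for all genes, and for each pair the 3 called genes that departed most from the other pairs are given as a description. The SD of the pair differences over all probe sets was 0.31 for WT1 siRNA, 0.26 for scrambled siRNA and 0.24 for reagent. In the WT1 siRNA pair LGR5, a receptor for R-spondins, differed by −0.40, against −1.35 and −1.41 in the scrambled siRNA and reagent pairs. FRZB, a secreted Wnt antagonist, behaved alike, with −0.38 against −1.22 and −1.33. A probe set of JUND differed by −1.32 with the WT1 siRNA, −0.72 with the scrambled siRNA and −0.12 with reagent, all 3 arrays of number 2 being at 4.95 to 5.10, so that the spread lay in number 3.

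In the scrambled siRNA pair the second CXCL8 probe set differed by 0.71, against 1.73 and 1.40 in the WT1 siRNA and reagent pairs. PCOLCE2, an enhancer of procollagen processing, differed by 0.08 there, against 0.80 and 0.72, and the vesicle gene VAMP2 by −1.27, against −0.41 and −0.67. In the reagent pair LIPG, the endothelial lipase, differed by −1.65, against −0.73 and −0.69 in the WT1 siRNA and scrambled siRNA pairs. NDRG1, a hypoxia-responsive gene, differed by −0.20 there, against −0.998 and −1.11. With 1 array for each treatment in a number, these departures have no replicate check.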

How the data were processed

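Transcript levels were measured on Affymetrix arrays, 6 of which (numbers 2 and 3) were analysed here. Per the submitters' processing notes, the authors used RMA, and each deposited value is a log2 expression level of a probe set. The version of RMA and the chip definition file were not given in the sources used here. Replicates come from the sample titles. Of 22277 probe sets, 62 controls, 1043 with several gene symbols and 2108 with none were left out, and 19064 with 1 symbol (11963 genes, GEO platform annotation) were tested, with 0 missing values and 0 pairs of identical arrays.

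The values were used as deposited. A linear model with terms for treatment and culture number was fitted to all probe sets with limma 3.58.1 in R 4.3.3. It used lmFit and eBayes, with a prior of 6 degrees of freedom beside 2 residual. Tests were two-sided, with Benjamini-Hochberg adjustment over 19064 probe sets. The fit was also run on simulated data with independent noise on each array. That simulation had no handling difference between numbers, so it does not bear on one. The number of arrays limits the precision. Gene lists (41) were counted by each gene's brightest probe set over the arrays. List members are given by that probe set unless stated. Not all other probe sets of the genes named were called, as for PLAU, IL1A, CCN1 and DUSP1. The comparison, the lists and their members were chosen with earlier results of these data known. Named genes were WT1, the 12 with the greatest called increase and the 12 with the greatest called decrease (1 probe set a gene, same sign in 3 pairs), up to 4 genes a list with the smallest p and members that describe its roles, and 3 for each pair. Gene spans came from RefSeq (GRCh38.p14). Alternatives were no treatment term, all 9 arrays, rescaling, filters on dim probe sets, other variance priors, leaving out each pair, and, chosen after seeing the data, centring within bins of gene length and scaling to one interquartile range. Figures were drawn with matplotlib 3.10.9.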

Additional observations from a re-analysis of the deposited data

Results flagged for a closer look

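Some measures of the control probe sets, which were outside the comparison, were higher on every array of number 2 than on any of number 3. The excess of the 3' over the 5' end was greater by 0.207 for ACTB and by 0.0687 for GAPDH on the log2 scale, and the 18S rRNA controls were higher by 0.529. The hybridisation controls were lower in number 2. The dimmer WT1 probe set differed in sign between treatments, with −0.226 in the WT1 siRNA pair, −0.0595 in the scrambled siRNA pair and 0.0432 in the reagent pair; the difference between pairs was not tested.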

How the results depend on the processing

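With the culture number as a replicate block no paired analysis was possible because the number is itself what was compared, and arrays were paired by treatment instead. The 4680 calls became 2599 without a term for treatment (1173 higher and 1426 lower), 3036 with 1 probe set a gene (1443 lower), 2516 to 4214 with a pair left out (1115 to 2115 higher and 1401 to 2099 lower), 2261 at an adjusted p under 0.01 and 101 with an absolute log2 difference of at least 1. Fewer probe sets were tested in the second of these, and fewer arrays where a pair was left out; for the others the cause was not tested. Centring within bins of gene length, chosen after seeing the data, gave 3596 higher, against 2930 with each array centred on its median alone. WT1 kept its difference of 0.477 without a term for treatment, at an adjusted p of 0.454, and with a pair left out it ranged from 0.372 to 0.584. The 24 genes with the greatest differences were called in the same direction in 347 of 348 alternatives, the exception being LRRC17 without a term for treatment. They were picked for their size in the same arrays, so this is no separate evidence. Among the probe sets followed for all the genes named, 38 lost their call without a term for treatment and 24 without the scrambled siRNA pair. No probe set called in both the fit as given and an alternative changed sign, which refits of the same values nearly guarantee. Dim probe sets limit what can be seen, as for WT1 and ABCG1.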

Other observations

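Some lists that the report does not describe also held called genes. Of 23 genes of ribosome biogenesis and MYC targets, 7 were higher in number 2 (30.4%) and 5 lower (21.7%). The spermidine synthase SRM was lower by 0.75 and the nucleolar helicase DDX21 higher by 0.39. In this list 4 were higher and 2 lower without the scrambled siRNA pair. Of 19 p53 targets and apoptosis genes, 4 were higher (21.1%), among them PMAIP1 (0.46) and MCL1 (0.39, with 1 of its 5 probe sets called). In the same list 6 were lower (31.6%), among them CDKN1A (−0.37), with 2 lower without the scrambled siRNA pair. Lysosomal proteases were divided: CTSD was lower by 0.76 and CTSB higher by 0.46. Of 16 circadian genes, 2 were higher (12.5%), NR1D2 (0.50) and BHLHE41 (0.46), and 1 lower (6.25%), DBP (−0.59). These circadian shares are no greater than those of all genes (13% and 11.8%).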
